A study of Homo sapiens with 24 samples.

Results

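The SRSF and HNRNP genes made up 43 of the 26249 genes in the deposited tables. They were taken by symbol, 12 entries whose symbol begins with SRSF and a digit and 31 entries whose symbol begins with HNRNP. No value entered the choice of single entries, but the 2 families and the times compared were selected on responses already seen in these data. The responses to the compound at 6 h and 24 h are therefore given as a description, and the number of members that passed a test in them is not independent support for any pattern. A level of at least 1 FPKM in at least 3 libraries was required for testing, and 33 members reached it, 11 SRSF and 22 HNRNP entries. The other 10 members never reached 1 FPKM in any library, with a highest value of 0.849, and were SRSF12, HNRNPA1P10, HNRNPA1P33, HNRNPA3P1, HNRNPCL1, HNRNPCL2, HNRNPCL3, HNRNPCL4, HNRNPKP3 and HNRNPUL2-BSCL2.

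SR proteins carry RNA recognition motifs and a tail rich in arginine and serine. They bind exonic enhancers, recruit the spliceosome to nearby splice sites, and are moved and activated by phosphorylation of that tail by the SRPK and CLK kinases. The hnRNP proteins coat nascent transcripts and often act against SR proteins at the same exons, and many of them also act in RNA export, stability or translation. Many genes of both families control their own level through alternative exons that send the transcript to decay. QuantSeq libraries cover only the 3′ end of a polyadenylated RNA, so they show a level per gene and not which exons were used.

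The cells were H929 and MM1S, established human multiple myeloma lines. They received the vehicle DMSO or YKL-5-124 (YKL below), a compound known by a code name and aimed at CDK7, the TFIIH kinase that phosphorylates RNA polymerase II. H929 cells carried a label of 83 nM and MM1S cells of 98 nM, in the DMSO groups as well, so line and dose cannot be told apart. Harvest was at 6 h or at 24 h. The study thus has 8 groups, each with 3 libraries. The labels do not say that the 3 libraries of a group came from separate cultures, and p-values then measure only the spread between these libraries, which may be technical.

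The summed FPKM of all genes ran from 361700 to 2519600 per library, while the spike-in medians stayed level. No source used here states that the deposited values were scaled to the spike-ins. Their median log2 deviation lay between -0.038 and 0.060 in every library, so a deposited change is close to one per amount of spike-in. Whether it is also a change per cell is not known. Single spike-ins scattered most in MM1S YKL 6 h replicate 2 and MM1S DMSO 24 h replicate 1, with an SD of their log2 deviations of 0.999 and 0.576, against 0.131 to 0.327 in the other libraries. The mean scaling factor of a group, which follows the typical gene, was 1.87 in H929 DMSO at 6 h and 0.539 in MM1S DMSO at 24 h. On the deposited scale the median log2 change of all 12418 tested genes under YKL was -0.06 in H929 at 6 h, -0.46 in H929 at 24 h, -0.29 in MM1S at 6 h and -0.12 in MM1S at 24 h. After median-of-ratios rescaling, which sets the typical gene level between libraries, the same medians were 0.07, 0.13, 0.05 and 0.05. Both scales are given below, and a change on the rescaled values is a change relative to the typical gene. In bulk RNA, fewer cells and less RNA per cell cannot be told apart. Of the plasma cell markers, 8 had an entry and all 8 stood at or above 1 FPKM in all 24 libraries, and the T cell, monocyte and epithelial markers CD3D, CD2, CD8A, CD14, LYZ, FCGR3A, EPCAM and KRT8 never did. KRT18 alone among the epithelial markers was well above that level, up to 33.2 FPKM, in H929, and CD3E and S100A8 reached 3.76 and 3.09 FPKM. CD3G, CSF1R and the fibroblast marker COL1A1 reached 2.20, 1.07 and 1.83 FPKM, and COL1A2 stayed below 1 FPKM.

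The 250 bases upstream of the annotated start are shown for 4 members, since they mark the range of response: SRSF3 and SRSF7 had the deepest falls among SRSF genes at 6 h in MM1S, HNRNPDL was the only HNRNP gene called lower in all 4 comparisons with DMSO on both scales, and HNRNPU changed little at 6 h. The sequences come from RefSeq with build GRCh38.p14 (the expression files used hg19), and each is written 5′ to 3′ in the direction of the gene. SRSF7 and HNRNPDL had 2 windows each, and the one with the most upstream start is shown. Capitals mark 5 motifs, read on both strands. They are the box with the letters CCAAT, the TATA box with TATAAA, the E-box with CACGTG, the ETS site with CCGGAAG and the GC box with GGGCGG.
SRSF3, chr6:36594112-36594361, plus strand: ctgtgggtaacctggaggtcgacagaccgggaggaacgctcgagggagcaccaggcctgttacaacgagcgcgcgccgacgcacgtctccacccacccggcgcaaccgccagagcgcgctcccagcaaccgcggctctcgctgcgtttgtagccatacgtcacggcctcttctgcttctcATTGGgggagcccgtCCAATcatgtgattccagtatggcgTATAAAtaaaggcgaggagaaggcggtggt
SRSF7, chr2:38751495-38751744, minus strand: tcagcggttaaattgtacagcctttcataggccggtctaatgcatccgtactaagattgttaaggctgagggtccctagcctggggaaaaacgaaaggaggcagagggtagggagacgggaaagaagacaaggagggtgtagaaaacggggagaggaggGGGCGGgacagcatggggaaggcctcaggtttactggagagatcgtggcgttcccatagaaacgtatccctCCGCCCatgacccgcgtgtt
HNRNPDL, chr4:82430463-82430712, minus strand: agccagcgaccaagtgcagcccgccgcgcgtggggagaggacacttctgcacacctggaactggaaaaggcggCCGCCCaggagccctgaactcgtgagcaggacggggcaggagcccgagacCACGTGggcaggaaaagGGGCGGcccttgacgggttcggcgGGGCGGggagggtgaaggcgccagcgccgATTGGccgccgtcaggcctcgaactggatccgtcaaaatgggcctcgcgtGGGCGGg
HNRNPU, chr1:244864544-244864793, minus strand: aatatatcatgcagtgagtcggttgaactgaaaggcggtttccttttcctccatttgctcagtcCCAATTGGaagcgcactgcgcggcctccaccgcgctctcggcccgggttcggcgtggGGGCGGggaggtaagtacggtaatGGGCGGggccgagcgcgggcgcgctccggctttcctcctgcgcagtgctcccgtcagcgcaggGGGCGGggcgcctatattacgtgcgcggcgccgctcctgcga

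In these windows SRSF3 held a TATA box and 2 CCAAT boxes, and SRSF7 held 2 GC boxes. HNRNPDL held 4 GC boxes, an E-box and a CCAAT box. HNRNPU held 3 GC boxes and a CCAAT box that reads on both strands at overlapping bases. The RefSeq table held 44 windows for 30 of the 33 tested members, since some genes have more than 1 start. The CCAAT box stood in 47.7% of these windows and in 32.0% of all 35116 windows in the table, and the GC box in 59.1% and 42.6%. By family, the CCAAT box was in 3 of 13 SRSF windows and 18 of 31 HNRNP windows. The GC box was in 4 of 13 and 22 of 31. For both motifs the SRSF windows lay below the share of all windows, so the higher pooled share came from HNRNP windows. The TATA box stood in 13.6% of the members' windows against 10.7% of all, the E-box in 15.9% against 6.3%, and the ETS site in 11.4% against 8.5%. All 7 windows with an E-box belonged to HNRNP entries, and none of the 13 SRSF windows held one (0). These are letter matches, not binding sites.

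At 6 h the SRSF family stood lower under YKL in both lines, and the HNRNP family did so mainly in MM1S. The median log2 change of the 11 SRSF members in H929 was -0.73, against -0.27 for the 22 HNRNP members. In MM1S the medians were -0.89 and -0.88. After rescaling they were -0.53 and -0.08 in H929, and -0.44 and -0.41 in MM1S. In H929, 2 SRSF members and 1 HNRNP member fell (limma, adjusted p under 0.05), against 1.16% of all genes that fell. After rescaling 7 and 3 fell, against 4.19%, and none of the 33 rose, against 5.11%. In MM1S, 6 SRSF and 12 HNRNP members fell, against 10% of all genes, and 6 and 10 fell after rescaling, against 7.21%, with none higher against 8.25%. Without H929 DMSO 6 h replicate 2 or 3, or YKL 6 h replicate 1 or 3, 1 member was called in H929 at 6 h as deposited in place of 3. In MM1S at 6 h the 18 calls became 9 without DMSO replicate 1 or 2 and 10 without YKL replicate 2 or 3, of which YKL replicate 2 had uneven spike-ins.

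**Figure D1:**
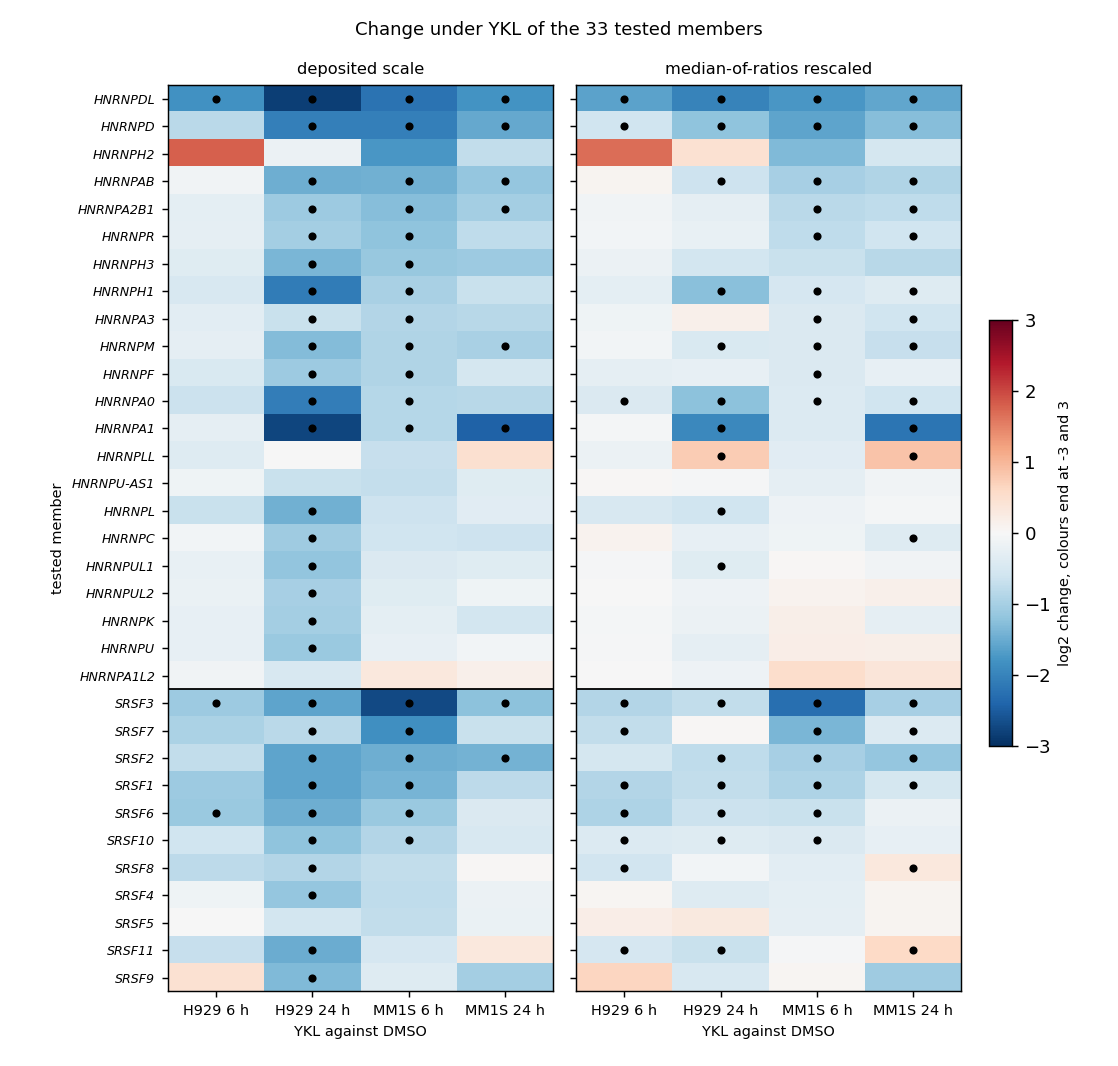
Heat map of the log2 change under YKL of the 33 tested members (one line each, HNRNP above and SRSF below the black line, ordered by the rescaled change in MM1S at 6 h) in the 4 comparisons with DMSO, as deposited on the left and after rescaling on the right. Blue is lower and red higher under YKL, colours end at -3 and 3, and a black dot marks an adjusted p under 0.05; HNRNPDL and SRSF3 carry a dot in all 8 columns.

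SRSF3, the smallest SR protein and a factor in splicing, export and polyadenylation, had the deepest fall of both families in MM1S at 6 h, while in H929 HNRNPDL fell further and SRSF6 by about as much. In MM1S its DMSO libraries held 95.7, 91.5 and 80.6 FPKM and its YKL libraries 13.7, 11.6 and 13.0. The groups did not overlap, and every YKL library was far below every DMSO library. The YKL mean was 0.143 times the DMSO mean, a log2 change of -2.71 ± 0.25 (SE, adjusted p = 2.95e-06), and -2.26 ± 0.10 after rescaling. In H929 the DMSO libraries held 183, 192 and 199 FPKM and the YKL libraries 73.7, 103 and 94.8. These groups did not overlap either, and the change was -1.09 ± 0.25 (adjusted p = 0.0237). After rescaling it was -0.89 ± 0.10 (adjusted p = 8.64e-06). The difference in response between the lines was 1.63 ± 0.36 on the log2 scale as deposited (H929 minus MM1S, adjusted p = 0.0585) and 1.37 ± 0.14 after rescaling (adjusted p = 4.06e-05).

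SRSF7, the closest relative of SRSF3 and the SR protein with a zinc knuckle, had the next deepest fall of the SRSF genes in MM1S. MM1S held 101, 99.6 and 98.1 FPKM with DMSO at 6 h and 28.1, 23.5 and 30.7 with YKL, a change of -1.83 ± 0.27 (adjusted p = 0.000241). The YKL libraries again lay together below all DMSO libraries. In H929 the values were 161, 194 and 200 against 78.7, 120 and 90.7, again without overlap. The H929 change of -0.95 ± 0.27 did not pass the test as deposited (adjusted p = 0.0596), but the rescaled change of -0.75 ± 0.12 did (adjusted p = 0.000411).

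SRSF1, the founding SR protein and a factor that also feeds mRNA decay and translation, held 130, 106 and 122 FPKM in MM1S DMSO at 6 h against 47.0, 46.3 and 41.3 with YKL. In H929 it held 198, 363 and 278 against 102, 142 and 145. All YKL libraries were below all DMSO libraries in both lines, and the spread among the H929 DMSO libraries was wide. The log2 changes were -1.39 ± 0.30 in MM1S (adjusted p = 0.00538) and -1.08 ± 0.30 in H929 (adjusted p = 0.0567), or -0.92 ± 0.14 and -0.88 ± 0.14 after rescaling, both past the threshold.

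SRSF2 (SC35), which marks nuclear speckles and is mutated in myeloid disease, held 155, 163 and 128 FPKM in MM1S DMSO at 6 h and 57.5, 48.5 and 53.7 with YKL. In H929 it held 275, 318 and 318 against 140, 196 and 222. The groups were apart in both lines, with a change of -1.46 ± 0.30 in MM1S (adjusted p = 0.00395). The H929 change was -0.73 ± 0.30 as deposited (adjusted p = 0.229) and -0.53 ± 0.22 rescaled (adjusted p = 0.139).

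SRSF6, a factor of alternative exon choice, was called in both lines at 6 h. It held 62.8, 66.6 and 67.2 FPKM in H929 DMSO and 25.8, 33.8 and 29.4 with YKL, with no overlap. In MM1S the values were 43.1, 43.2 and 28.1 against 18.4, 15.7 and 16.0. The log2 change was -1.12 ± 0.27 in both lines (adjusted p = 0.0298 in H929 and 0.0116 in MM1S). SRSF10, a splicing repressor when dephosphorylated, fell in MM1S by 0.89 on the log2 scale (adjusted p = 0.0354), and in H929 only after rescaling, by 0.41.

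Not all SR genes followed. SRSF5 in H929 at 6 h held 304, 275 and 262 FPKM with DMSO and 208, 315 and 332 with YKL, so the groups overlapped. Its YKL mean was 1.02 times its DMSO mean (adjusted p = 0.999), and SRSF4 stood at a log2 change of -0.13 ± 0.26 there. In MM1S the changes of SRSF5, SRSF4 and SRSF8 were -0.74, -0.75 and -0.75, and none of them passed the test, with adjusted p from 0.0624 to 0.086. SRSF8 passed in H929 only after rescaling (-0.58 ± 0.11, adjusted p = 0.00201). SRSF11, a member that acts with splice site recognition factors, held 108, 91.4 and 112 FPKM in MM1S DMSO and 84.8, 62.0 and 72.0 with YKL, a change of -0.51 ± 0.27 (adjusted p = 0.225), and -0.05 ± 0.13 after rescaling.

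SRSF9 had the highest log2 change of the SRSF members at 6 h in both lines. In H929 the DMSO libraries held 197, 124 and 181 FPKM and the YKL libraries 161, 247 and 283, a log2 change of 0.45 ± 0.46 (adjusted p = 0.732). The groups overlapped. In MM1S it was low, at 29.9, 31.1 and 14.7 FPKM with DMSO at 6 h, and at 1.46, 9.22 and 1.93 at 24 h. In the GENCODE annotation the 3′ ends of SRSF9 and GATC overlap on opposite strands, and the sources used here do not give whether counting used strand, so reads of the 2 genes may be mixed.

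**Figure D2:**
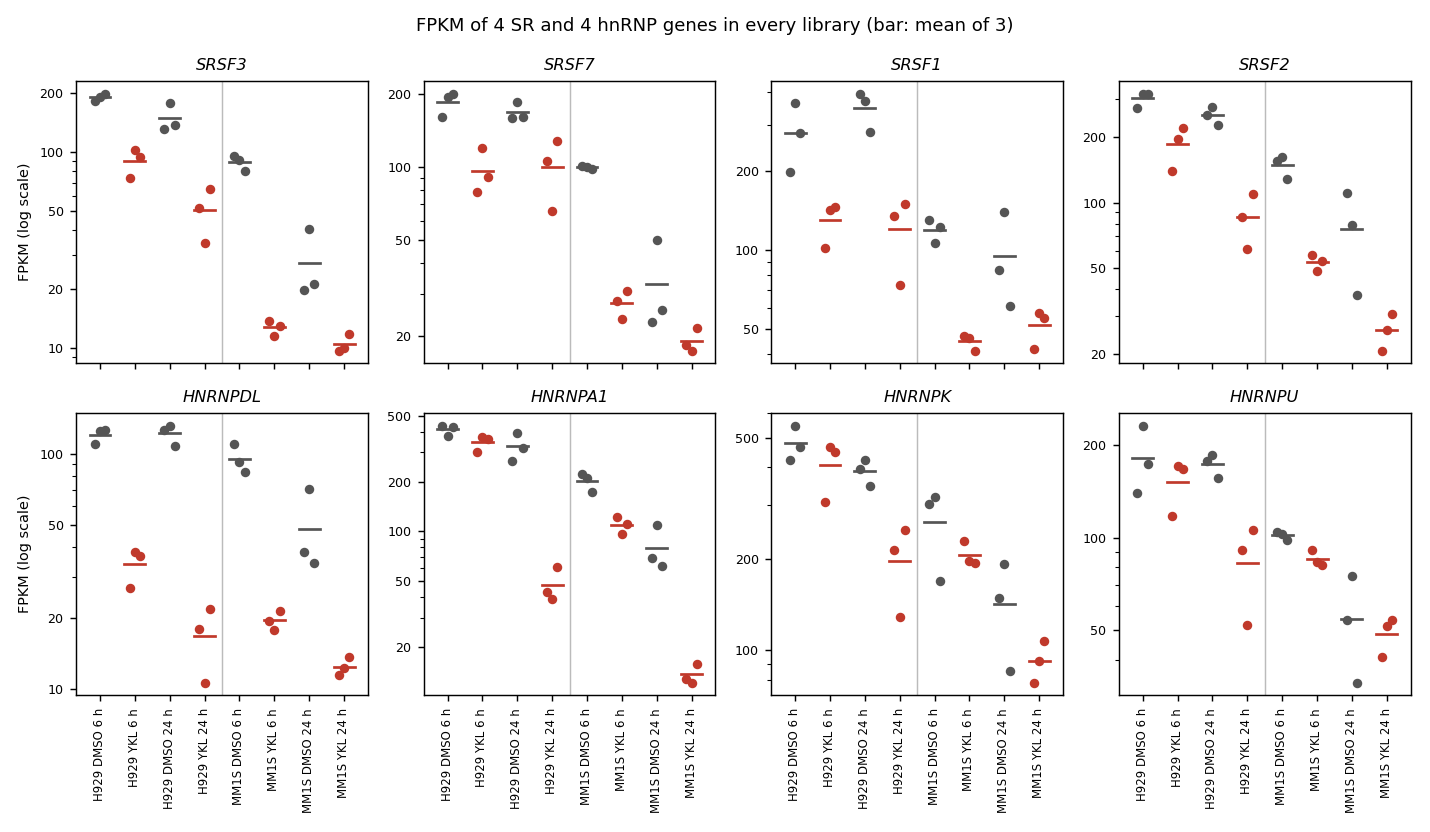
FPKM (log axis, own range in each panel) of SRSF3, SRSF7, SRSF1, SRSF2, HNRNPDL, HNRNPA1, HNRNPK and HNRNPU in all 24 libraries, grey for DMSO and red for YKL, with H929 left and MM1S right of the vertical line. Points are single libraries and short bars are means of 3; SRSF3 in MM1S at 6 h lies between 11.6 and 13.7 with YKL and between 80.6 and 95.7 with DMSO.

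HNRNPDL, a paralog of HNRNPD that binds AU-rich RNA, was the HNRNP gene with the deepest fall at 6 h in both lines. In H929 it held 110, 124 and 126 FPKM with DMSO and 26.8, 38.3 and 36.9 with YKL, a log2 change of -1.80 ± 0.26 (adjusted p = 0.000553). In MM1S it held 110, 91.9 and 83.8 against 19.6, 17.9 and 21.5, a change of -2.21 ± 0.26 (adjusted p = 3.87e-05). No YKL library came near a DMSO library in either line. After rescaling the changes were -1.59 ± 0.09 and -1.76 ± 0.09.

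HNRNPD (AUF1), which steers the decay of AU-rich transcripts, held 230, 254 and 203 FPKM in MM1S DMSO at 6 h and 61.1, 53.8 and 49.3 with YKL. In H929 it held 277, 346 and 321 against 143, 206 and 197. The groups were apart in both lines, and the fall was larger in MM1S, at -2.04 ± 0.26 (adjusted p = 7.96e-05) against -0.80 ± 0.26 (adjusted p = 0.118). The difference between lines was 1.24 ± 0.37 as deposited (adjusted p = 0.174) and 0.97 ± 0.14 rescaled (adjusted p = 0.0015).

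HNRNPAB, another AU-rich binding relative, held 211, 220 and 162 FPKM in MM1S DMSO at 6 h and 90.8, 65.6 and 60.2 with YKL, a change of -1.45 ± 0.28 (adjusted p = 0.00253). In H929 its groups overlapped, at 554, 410 and 650 against 353, 614 and 549. HNRNPA2B1, a core particle protein and reader of RNA sorting signals, fell in MM1S from 225, 220 and 247 FPKM to 105, 89.5 and 90.6, a change of -1.27 ± 0.25 (adjusted p = 0.00352). In H929 it held 317, 345 and 311 against 202, 298 and 302, a change of -0.30 ± 0.25 (adjusted p = 0.654), and -0.10 ± 0.13 after rescaling.

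HNRNPU, the nuclear scaffold protein, and HNRNPK, a protein with KH domains that binds C-rich RNA and DNA, showed small changes at 6 h. HNRNPU held 104, 103 and 98.6 FPKM in MM1S DMSO and 91.3, 83.5 and 81.6 with YKL. The YKL libraries were all lower, but after rescaling all 3 were higher than DMSO, with a change of -0.26 ± 0.28 as deposited and 0.21 ± 0.11 rescaled, neither past the test. HNRNPK held 302, 320 and 169 against 229, 197 and 193, so 1 DMSO library lay below all YKL libraries, and the changes were -0.30 ± 0.30 and 0.17 ± 0.14. HNRNPC, HNRNPL, HNRNPUL1 and HNRNPUL2 did not pass in MM1S at 6 h on either scale, with log2 changes of -0.59, -0.62, -0.42 and -0.36 as deposited.

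Across the 11 SRSF members the log2 changes of the 2 lines at 6 h, which share no library, had a Pearson r of 0.64. The 22 HNRNP members had an r of 0.14, or 0.67 without HNRNPH2, whose values are treated next. Across all 12418 genes r was 0.45. At 24 h r was 0.43 for the SRSF members, 0.77 for the HNRNP members and 0.51 for all genes. Genes of one library share its scale and depth, and these values are given as a description.

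HNRNPH2 held values that switched between libraries of one group. In H929 DMSO at 6 h it held 50.6, 0.155 and 59.8 FPKM, and the entry RPL36A-HNRNPH2, a readthrough transcript that includes HNRNPH2, held 0.117, 61.6 and 0.151. In 7 of the 24 libraries HNRNPH2 was below 10 FPKM and the readthrough entry above 10 FPKM, and in the other 17 libraries it was the reverse, with the readthrough entry below 1 FPKM. The sum of the 2 entries was 50.7, 61.7 and 60.0 FPKM in this group. It spread more in other groups, from 38.4 to 81.9 FPKM in H929 YKL at 24 h and from 17.6 to 36.2 FPKM in MM1S DMSO at 24 h. HNRNPH2 had a log2 change of 1.78 ± 1.70 in H929 at 6 h, whereas the mean of the summed entries under YKL was 0.931 times that with DMSO. In MM1S at 6 h the sum was 44.0 ± 7.01 FPKM with DMSO (SD, n = 3) and 30.8 ± 5.25 with YKL, 0.701 times, with no overlap. At 24 h the ratio was 0.903 in H929 and 0.948 in MM1S, and the groups overlapped. These sums are as deposited and were not rescaled. The mean scaling factor also fell in MM1S at 6 h, from 1.17 with DMSO to 0.84 with YKL. In H929 at 24 h it fell from 1.77 to 1.02. The ratios of the sums therefore do not show a change relative to the typical gene.

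**Figure D3:**
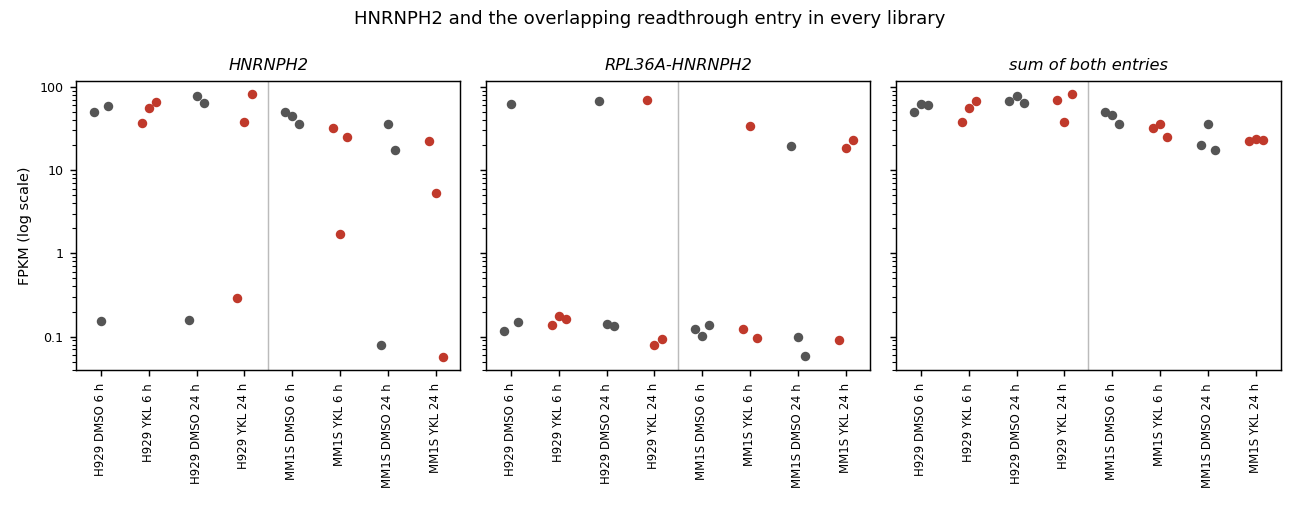
FPKM (log axis) of HNRNPH2, of the overlapping entry RPL36A-HNRNPH2 and of their sum in all 24 libraries, grey for DMSO and red for YKL, with H929 left and MM1S right of the vertical line. Each point is 1 library; the 7 libraries low for HNRNPH2 are high for the readthrough entry, and the sum spans 17.6 to 81.9 FPKM.

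At 24 h both families were lower in H929 and, with smaller medians as deposited, in MM1S. As deposited 28 members were called in H929 and 8 in MM1S, but after rescaling the numbers were 16 and 18. In H929, 10 SRSF and 18 HNRNP members fell as deposited, against 35.4% of all genes. After rescaling 6 and 9 fell, against 12.5%, and 1 HNRNP member (HNRNPLL) rose, against 20.8%. The medians of the SRSF and HNRNP members were -1.31 and -1.11 as deposited, and -0.48 and -0.27 after rescaling. In MM1S, 2 and 6 fell as deposited, against 6.77%. After rescaling 4 and 11 fell, against 13.3%, and 3 rose (SRSF8, SRSF11 and HNRNPLL), against 14.4%. Of 6 rescaled fits that each left out 1 library, the SRSF8 rise passed in 2, and those of SRSF11 and HNRNPLL in all 6. The medians in MM1S were -0.48 and -0.71 as deposited, and -0.24 and -0.46 after rescaling. In MM1S the call count moved from 8 to 5 without DMSO 24 h replicate 2 and to 14 without DMSO 24 h replicate 3.

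HNRNPA1, the most abundant core hnRNP protein in many cells and an antagonist of SRSF1 in splice site choice, fell mainly at 24 h. In H929 it held 434, 376 and 429 FPKM with DMSO and 300, 374 and 360 with YKL at 6 h, a log2 change of -0.26 ± 0.24 (adjusted p = 0.68). At 24 h it held 266, 395 and 321 against 43.3, 38.8 and 61.0, a change of -2.76 ± 0.24 (adjusted p = 3.77e-08). The difference between times was -2.50 ± 0.33 (adjusted p = 0.000253) and -1.86 ± 0.20 rescaled. All YKL libraries at 24 h lay far below all DMSO libraries.

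In MM1S the same gene held 222, 211 and 173 FPKM with DMSO at 6 h and 122, 96.6 and 111 with YKL, and at 24 h 69.0, 109 and 61.4 against 12.9, 12.2 and 15.9. The groups were apart at both times. The changes were -0.87 ± 0.24 and -2.42 ± 0.24 (adjusted p = 0.0223 and 9.19e-07), and the difference between times was -1.56 ± 0.33 as deposited (adjusted p = 0.0617) and -1.80 ± 0.20 rescaled (adjusted p = 8.92e-06). After rescaling it passed in 12 of 12 fits that each left out 1 library. The pseudogenes HNRNPA1P10 and HNRNPA1P33 and the copy HNRNPA1L2 resemble HNRNPA1 closely, and reads shared among them could be split; HNRNPA1L2 never exceeded 1.39 FPKM.

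HNRNPH1 and HNRNPA0 also fell further at 24 h than at 6 h in H929. HNRNPH1, which binds G-rich runs, held 615, 706 and 655 FPKM against 378, 523 and 526 at 6 h, and 628, 740 and 609 against 173, 96.3 and 212 at 24 h. The difference between times was -1.62 ± 0.40 (adjusted p = 0.0202). HNRNPA0, which binds AU-rich RNA, held 166, 204 and 197 against 93.2, 149 and 127 at 6 h, and 165, 177 and 155 against 44.0, 28.5 and 45.5 at 24 h, a difference of -1.44 ± 0.39 (adjusted p = 0.0306). In both genes the YKL libraries lay below the DMSO libraries at both times.

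For all 33 members in H929, 5 had a lower response at 24 h than at 6 h (HNRNPA0, HNRNPA1, HNRNPAB, HNRNPD and HNRNPH1), against 6.18% of all genes, and none had a higher one, against 0.29%. After rescaling, 5 were lower, against 4.66%, and 3 were higher (SRSF7, SRSF8 and HNRNPLL), against 5.77%. Of 12 rescaled fits that each left out 1 library, SRSF7 passed in 12, SRSF8 in 4 and HNRNPLL in 2. On the lower side HNRNPA0, HNRNPA1, HNRNPD and HNRNPH1 passed in 12 and HNRNPDL in 1. In MM1S none was called as deposited in either direction, against 0.0483% lower and 0.0322% higher over all genes. After rescaling 1 was lower (HNRNPA1), against 6.28%, and 5 were higher (SRSF3, SRSF7, SRSF8, SRSF11 and HNRNPLL), against 4.3%. Of 12 such fits in MM1S, SRSF11 passed in 5 and the other members named here in 12. All deposited calls in H929 were HNRNP members. Their number was 1 without H929 DMSO 6 h replicate 1, YKL 6 h replicate 2 or 3, DMSO 24 h replicate 2 or YKL 24 h replicate 2, 2 without DMSO 24 h replicate 1 or 3, 3 without DMSO 6 h replicate 2 or 3 or YKL 24 h replicate 1, and 9 without YKL 24 h replicate 3. In MM1S it rose from 0 to 4 without DMSO 24 h replicate 2 and to 1 without DMSO 24 h replicate 3.

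SRSF3 in MM1S held 19.8, 40.8 and 21.2 FPKM with DMSO at 24 h and 9.72, 10.0 and 11.8 with YKL. The YKL libraries were below all DMSO libraries, with a log2 change of -1.23 ± 0.25 (adjusted p = 0.00304). Against 6 h the response was 1.49 ± 0.36 smaller in size on the log2 scale, which did not pass as deposited (adjusted p = 0.098) and did after rescaling (1.27 ± 0.14, adjusted p = 5.22e-06). As deposited the YKL mean of SRSF3 was 12.8 FPKM at 6 h and 10.5 at 24 h, and the DMSO mean at 24 h was 0.305 times that at 6 h. After rescaling its YKL mean was 15.2 ± 0.659 at 6 h and 25.0 ± 1.04 at 24 h (SD, n = 3), so on that scale it was higher at 24 h, a difference that was not tested. The rescaled DMSO mean at 24 h was 0.666 times that at 6 h, which was a fall (adjusted p = 0.000755). In H929 at 24 h SRSF3 held 132, 178 and 138 FPKM with DMSO and 52.1, 34.4 and 65.0 with YKL. Its change there was -1.58 ± 0.25 as deposited and -0.75 ± 0.10 rescaled, against -1.09 and -0.89 at 6 h. The H929 difference between times passed in 0 of 12 rescaled fits that each left out 1 library.

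SRSF7 in MM1S held 23.0, 50.0 and 25.7 FPKM with DMSO at 24 h and 18.5, 17.5 and 21.6 with YKL, and the groups stayed apart by a narrow margin. The change was -0.66 ± 0.27 (adjusted p = 0.152), against -1.83 at 6 h, and the difference between times was 0.96 ± 0.16 after rescaling (adjusted p = 0.000684). The rescaled change at 24 h ran from -0.52 to -0.30 in 6 fits that each left out 1 library. It passed in 4 of them. In H929 the SRSF7 YKL libraries held 106, 65.8 and 128 FPKM at 24 h against 159, 186 and 161 with DMSO, a change of -0.80 ± 0.27 as deposited and 0.03 ± 0.12 rescaled, which is no call. The rescaled difference between times was 0.78 ± 0.16 (adjusted p = 0.00373).

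For SRSF2 and SRSF1 no difference between times passed the test. SRSF2 held 111, 78.8 and 37.2 FPKM in MM1S DMSO at 24 h against 20.7, 25.7 and 30.6 with YKL, a change of -1.41 ± 0.30 (adjusted p = 0.00358), and 254, 277 and 228 against 86.1, 61.0 and 110 in H929, a change of -1.59 ± 0.30 (adjusted p = 0.000296). SRSF1 held 84.0, 139 and 60.9 against 42.0, 57.6 and 54.8 in MM1S, a change of -0.80 ± 0.30 (adjusted p = 0.117), and 393, 368 and 280 against 135, 73.7 and 150 in H929, a change of -1.58 ± 0.30 (adjusted p = 0.000308). YKL libraries were below DMSO libraries for both genes in both lines. The rescaled SRSF1 change in MM1S ran from -0.62 to -0.44 in 6 fits that each left out 1 library. It passed in all 6. For SRSF2 the MM1S estimate was 0.05 ± 0.42 as deposited and -0.16 ± 0.31 rescaled for the difference between times, and for SRSF1 it was 0.59 ± 0.42 and 0.40 ± 0.19.

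HNRNPDL and HNRNPD stayed low at 24 h. HNRNPDL in H929 held 126, 131 and 108 FPKM with DMSO and 18.1, 10.7 and 21.9 with YKL, a change of -2.83 ± 0.26, and in MM1S 38.3, 70.7 and 34.5 against 11.5, 12.3 and 13.7, a change of -1.79 ± 0.26. HNRNPD in H929 held 245, 281 and 234 against 69.2, 43.0 and 73.0, a change of -2.05 ± 0.26, and in MM1S 101, 144 and 62.3 against 27.9, 32.1 and 38.8, a change of -1.54 ± 0.26. No group overlapped its control in these 4 comparisons, and all 4 passed on both scales.

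SRSF11 and HNRNPLL did not fall in both lines, while SRSF9 was lower in H929 as deposited. SRSF11 held 124, 160 and 131 FPKM with DMSO at 24 h in H929 and 51.7, 31.9 and 67.6 with YKL, a change of -1.50 ± 0.27, but 34.1, 64.9 and 35.1 against 48.7, 53.3 and 59.6 in MM1S, where the groups overlapped (0.32 ± 0.27). The difference between lines was -1.82 ± 0.38 (adjusted p = 0.0166) and -1.27 ± 0.19 rescaled (adjusted p = 0.000252). HNRNPLL, a regulator of exon exclusion in plasma cells and T cells, held 16.3, 21.2 and 14.7 against 20.8, 13.4 and 17.5 in H929, and 1.25, 2.71 and 0.771 against 1.79, 2.98 and 2.61 in MM1S. It was not called as deposited in either line at 24 h, and it rose by 0.76 ± 0.21 in H929 and 0.85 ± 0.21 in MM1S on the rescaled log2 scale. SRSF9 in H929 at 24 h held 109, 187 and 113 FPKM with DMSO and 40.6, 66.8 and 53.5 with YKL, with no overlap. Its change there was -1.31 ± 0.46 as deposited (limma, adjusted p = 0.0280) and -0.48 ± 0.52 rescaled, the latter not called. In MM1S at 24 h SRSF9 held 1.21, 2.85 and 0.0511 FPKM with YKL, with an overlap with DMSO. The means there were 4.20 FPKM with DMSO and 1.37 with YKL.

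HNRNPU and HNRNPK were not called in MM1S at 24 h, and in H929 they fell as deposited, close to the family median. HNRNPU in MM1S held 54.0, 74.8 and 33.8 FPKM with DMSO and 40.8, 51.6 and 53.8 with YKL, which overlapped (-0.09 ± 0.28), and in H929 178, 186 and 156 against 90.9, 52.0 and 106, a change of -1.11 ± 0.28 that was -0.28 ± 0.11 after rescaling (adjusted p = 0.0561). HNRNPK in MM1S held 149, 192 and 85.5 against 78.4, 92.3 and 107, a change of -0.55 ± 0.30. HNRNPA2B1 stayed lower in MM1S, at 87.0, 120 and 58.7 against 38.1, 47.9 and 38.7 (-1.02 ± 0.25, adjusted p = 0.013), and in H929 it held 278, 371 and 272 against 147, 104 and 186 (-1.10 ± 0.25 as deposited and -0.26 ± 0.13 rescaled, the latter not called).

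**Figure D4:**
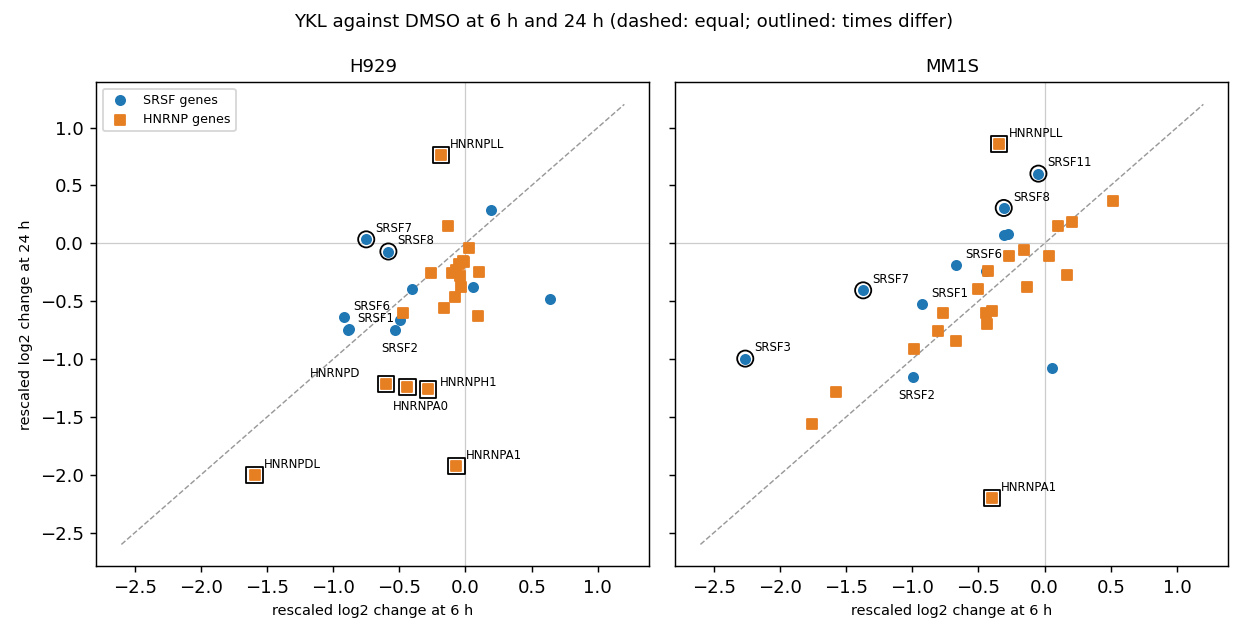
Rescaled log2 change under YKL at 6 h (horizontal axis) against 24 h (vertical axis) of the tested members other than HNRNPH2, H929 left and MM1S right, circles for SRSF and squares for HNRNP. Outlined points had an adjusted p under 0.05 for the difference between times; HNRNPA1 lies below the dashed line of equal change in both lines (-1.86 and -1.80 for the difference), and SRSF3 above it in MM1S (1.27).

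The lines were compared at each time. At 6 h none of the 33 members was called as deposited, against 0.137% of all genes higher and 0.0322% lower in H929. After rescaling SRSF3, HNRNPD and HNRNPAB were higher (the fall was smaller in H929), against 0.725%, and none was lower, against 0.411%. At 24 h only SRSF11 was called as deposited, in the direction of a lower response in H929, against 1.07% of all genes, and none was higher, against 0.29%. After rescaling 4 were lower (HNRNPA0, HNRNPDL, HNRNPH1 and SRSF11), against 4.32%, and 1 was higher (HNRNPA3), against 8.04%. Without MM1S DMSO 24 h replicate 2, 13 members were called at 24 h as deposited, 2 without H929 YKL 24 h replicate 3, and none (0) without H929 DMSO 24 h replicate 2, MM1S DMSO 24 h replicate 1 or MM1S YKL 24 h replicate 3. At 6 h, 1 was called without H929 YKL 6 h replicate 1.

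The DMSO groups of each line were compared between the times, and the difference between the lines was not tested. No member was called in H929 DMSO at 24 h against 6 h, where 0.0403% of all genes were lower. In MM1S 28 of the 33 were lower, against 56% of all genes. SRSF9 had the deepest fall, to 0.166 times its 6 h mean. The smallest adjusted p belonged to SRSF3, HNRNPAB and HNRNPR, whose 24 h means were 0.305, 0.284 and 0.310 times those at 6 h. After rescaling 8 were lower, against 5.39%, and SRSF1 alone was higher, against 10.3%. MM1S DMSO 24 h replicate 2 stood above the other 2 libraries of its group in most members, as in SRSF3 at 40.8 against 19.8 and 21.2 FPKM. What the fall of the DMSO levels in MM1S adds to the smaller response of SRSF3 and SRSF7 at 24 h was not tested.

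Between the lines with DMSO at 6 h, 19 members were higher in H929 as deposited, against 36.4% of all genes, and HNRNPF and HNRNPU-AS1 were lower, against 12.7%. After rescaling 13 were higher, against 22.6%, and 6 were lower, against 31%. SRSF9 was 6.62 times as high in H929, HNRNPLL 5.25 times and SRSF8 2.75 times. HNRNPF, a relative of HNRNPH1 that binds G-rich runs, held 166, 190 and 163 FPKM in H929 and 306, 302 and 270 in MM1S, with no overlap. HNRNPU-AS1, an antisense entry at HNRNPU, held 3.32, 7.10 and 4.58 in H929 and 21.0, 17.7 and 14.8 in MM1S; with the strand setting of the counting not given, it cannot be told apart from HNRNPU reads.

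Other splicing genes were described from 3 lists, SR-related proteins with SR protein kinases, hnRNP proteins under other names, and other splicing regulators. Of the 26 SR-related genes, 1 fell in H929 at 6 h, 21 in H929 at 24 h, 6 in MM1S at 6 h and 2 in MM1S at 24 h, with median log2 changes of -0.57, -0.96, -0.57 and -0.06. In the same order the shares of all genes that fell were 1.16%, 35.4%, 10% and 6.77%. After rescaling the falls were 8, 8, 3 and 2, against 4.19%, 12.5%, 7.21% and 13.3% of all genes, and the rises 0, 3, 1 and 8, against 5.11%, 20.8%, 8.25% and 14.4%. Several of these counts lie near the share over all genes. RBM39, an SR-related coactivator of splicing, fell at 6 h in H929 from 232.9 ± 65.3 to 67.5 ± 16.8 FPKM (SD, n = 3; limma, adjusted p = 0.00221), and in MM1S from 121.9 ± 6.43 to 52.8 ± 2.68 (limma, adjusted p = 0.0116). SRPK1, a kinase of SR proteins, fell in H929 at 24 h by 1.49 on the log2 scale. CLK1, CLK3, CLK4 and SRPK2, also kinases of SR proteins, were higher in MM1S at 24 h after rescaling, at 1.26, 0.79, 0.95 and 0.91. None of these 4 was called as deposited. The other listed kinases did not pass there after rescaling, CLK2 at 0.39 and SRPK1 at -0.25 (limma, adjusted p = 0.0695 and 0.171).

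Of the 14 tested hnRNP proteins under other names, 0 fell in H929 at 6 h and 10 at 24 h. In MM1S 4 fell at 6 h and 1 at 24 h. The falls stand against the same shares of all genes as in the first list. PCBP3 was higher in MM1S at 6 h, where 115 of all 12418 genes were higher as deposited. PCBP3 was low there, at 0.185 ± 0.024 FPKM with DMSO and 1.16 ± 0.41 with YKL (SD, n = 3). After rescaling 3 (PCBP1, SYNCRIP and TARDBP), 6, 5 and 3 fell and 0, 1, 2 and 1 rose. The rescaled shares of all genes are also those given with the first list. PTBP1, a repressor of exon inclusion, fell in H929 at 24 h from 386.9 ± 31.5 to 89.3 ± 32.0 FPKM (SD, n = 3; limma, adjusted p = 5.98e-06), and in MM1S at 24 h from 81.3 ± 31.3 to 34.2 ± 5.96 (limma, adjusted p = 0.00974). TARDBP, which represses cryptic exons, fell in MM1S at 6 h by 1.43 on the log2 scale. Of the 22 other splicing regulators, 0, 14, 2 and 3 fell in H929 at 6 h, H929 at 24 h, MM1S at 6 h and MM1S at 24 h, against 1.16%, 35.4%, 10% and 6.77% of all genes. After rescaling 1, 7, 1 and 4 fell, against 4.19%, 12.5%, 7.21% and 13.3% of all genes. The rises were 0, 2, 3 and 1, against 5.11%, 20.8%, 8.25% and 14.4%. Most of these rescaled counts lie near or below the share over all genes. SFPQ, a paraspeckle protein, was called in all but H929 at 6 h as deposited, with log2 changes of -1.98, -1.61 and -1.44 in H929 at 24 h, MM1S at 6 h and MM1S at 24 h.

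The genes most like the mean SRSF level over the 8 group means were CCDC101, MPP6, HUS1, EIF4E and UBTF, with Pearson r from 0.997 to 0.998. The median r of all tested genes was 0.82, so high values were common, and the SRSF and HNRNP means had an r of 0.97.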

How the data were processed

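RNA levels were measured by 3′ end sequencing (QuantSeq, per the labels' protocols) in 24 libraries of 2 lines. Each library has 1 deposited table, in FPKM, made by the authors with HISAT2 and Cuffnorm on hg19 per the submitters' processing notes, with versions not given in the sources used here. The tables hold 92 spike-in transcripts beside the genes. FPKM divides by gene length, although the reads come from 3′ ends, so levels are compared only within a gene. No value is 0, the lowest per library is 0.0370 to 0.137 FPKM, and depth is unknown.

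Groups came from the labels. The 12418 genes that reached 1 FPKM in 3 or more libraries were tested on log2(FPKM + 1), a scale that understates the change of low genes, with limma-trend (limma 3.58.1, R 4.3.3; 8 group means, two-sided, Benjamini-Hochberg over all genes, threshold 0.05). Ratios are of mean FPKM. The test was checked on simulated data. Rescaling divided each library by a median-of-ratios factor over genes whose geometric mean reached 5 FPKM. The 11 comparisons were YKL against DMSO, the differences of these responses between times and lines, and DMSO comparisons.

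The members and lists were chosen with earlier results of these data known. Text names SRSF1, SRSF2, SRSF3, SRSF7, HNRNPA1, HNRNPA2B1, HNRNPK and HNRNPU, up to 3 called members per family and YKL comparison with the smallest adjusted p, the member most opposite to its family, up to 3 called members per sign in other comparisons, up to 3 called genes per other list, and the 5 genes most like the SRSF mean. Other members, and CLK1, CLK2, CLK3, CLK4 and SRPK2, were named after their values were seen. Alternatives were rescaling, a pseudocount of 0.1, no filter, fitting only the groups compared, a replicate block, and leaving out each library. Replicate numbers were not treated as pairs in the main fit, since the labels do not say that they pair samples. Correlations of same-numbered deviations ran from -0.11 to 0.18, which in groups of 3 cannot settle it.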

Additional observations from a re-analysis of the deposited data

Results flagged for a closer look

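In 6 cases the response to YKL differed between times or lines by a test of the difference itself on the deposited scale. Of all genes, 6.18% had a lower response at 24 h than at 6 h in H929. At 24 h, 1.07% of all genes had a lower response in H929 than in MM1S. The families and times were selected on responses seen in these data, so these cases are a description. HNRNPA1 fell further at 24 h than at 6 h in H929, by -2.50 on the log2 scale (limma, adjusted p = 0.000253). The same difference was -1.62 for HNRNPH1 (limma, adjusted p = 0.0202), -1.44 for HNRNPA0 (limma, adjusted p = 0.0306), -1.36 for HNRNPAB (limma, adjusted p = 0.0409) and -1.25 for HNRNPD (limma, adjusted p = 0.0460). After rescaling HNRNPAB did not pass (-0.72, limma, adjusted p = 0.0888). SRSF11 had a lower response in H929 than in MM1S at 24 h, by -1.82 (limma, adjusted p = 0.0166).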

How the results depend on the processing

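Counts are of the 33 tested members called. After median-of-ratios rescaling they were 10 (3 as deposited) in H929 at 6 h, 16 (28) in H929 at 24 h and 18 (8) in MM1S at 24 h. For the response at 24 h minus 6 h they were 8 (5) in H929 and 6 (0) in MM1S, for H929 minus MM1S 3 (0) at 6 h and 5 (1) at 24 h, and for MM1S DMSO over time 9 (28). In H929 at 24 h rescaling turned the change of HNRNPLL to 0.76 and that of SRSF7 to 0.0341 on the log2 scale, and HNRNPA3, called lower as deposited at -0.66, had 0.15 with all YKL libraries above DMSO. With a pseudocount of 0.1 the count for 24 h minus 6 h was 3 in H929 and 1 in MM1S, and without the filter on low values it was 2 in H929. Fitting only the groups compared gave 3 in MM1S at 24 h, and for H929 minus MM1S 1 at 6 h and 0 at 24 h. The cause was not tested.

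Whether equal replicate numbers mark a shared culture or batch is not given. With the replicate block the count for H929 at 24 h minus 6 h was 3, and no other count moved by more than 1.5 times.

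Leaving out the 2 libraries with uneven spike-ins, chosen after seeing the data, gave 11 in MM1S at 6 h, 3 in H929 for 24 h minus 6 h and 0 for the lines at 24 h. Leaving out each library in turn gave 1 to 3 in H929 at 6 h, 23 to 30 in H929 at 24 h, 9 to 14 in MM1S at 6 h, 5 to 14 in MM1S at 24 h, 1 to 9 in H929 and 0 to 4 in MM1S for 24 h minus 6 h, and 0 to 1 at 6 h and 0 to 13 at 24 h for H929 minus MM1S. It gave 24 to 30 for MM1S DMSO over time and 17 to 19 for H929 against MM1S. After rescaling, a step also chosen after seeing the data for the runs without each library, the counts for H929 at 24 h minus 6 h were 5 to 7 and those of MM1S 5 to 6. Depth is unknown, so counting error is not given, and 3 libraries per group limit what small changes could pass.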
